A study of Rattus norvegicus with 11 samples.

Results

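The metabolic microRNAs miR-33, miR-103, miR-107, miR-378a, miR-378b, miR-22 and miR-335 were described in rat liver, taking all arms in the deposited table. They were chosen by name: a row belonged when its name, without the species prefix, began with one of these numbers followed by a hyphen or the end of the name. The rule found 11 of 1331 rows. Values were counts per 1000000 reads (CPM). A mean of 1 CPM or more was reached by 9 of them, which entered the test. The other 2, rno-miR-33-5p and rno-miR-107-5p, are given by their reads. The livers came from 11 male Sprague-Dawley rats, an outbred strain, that were 4 weeks old at the start of the experiment. The 6 Control rats received chow and intravenous 0.9% saline for 7 days. The 5 TPN rats received total parenteral nutrition, the infusion of all nutrients into a vein, for the same 7 days. Each library is called by its group and the rat number in its label.

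MicroRNAs are short RNAs that guide Argonaute proteins to messenger RNAs. They pair mainly through the seed, bases 2 to 8 from the 5′ end, and lower the stability or translation of the target. Each hairpin precursor yields a 5p and a 3p arm, of which usually one is kept in excess. The microRNAs described here are best known from lipid and energy metabolism. In mice and human cells miR-33 represses the cholesterol exporter ABCA1, miR-103 and miR-107 have been tied to insulin sensitivity in mouse liver and fat, and miR-378a has been tied to mitochondrial metabolism in mice. miR-22 is abundant in heart and liver of mice, and miR-335 is known from mouse adipose tissue.

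Of the 11 rows, 8 matched a mature sequence of RefSeq (build GRCr8). These are shown because the seed decides which members can share targets, and because the near identity of miR-103 and miR-107 bears on how their reads can be told apart. Seeds are in capitals.
rno-miR-33-5p: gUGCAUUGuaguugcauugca
rno-miR-33-3p: cAAUGUUUccacagugcauca
rno-miR-103-3p: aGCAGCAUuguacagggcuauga
rno-miR-107-3p: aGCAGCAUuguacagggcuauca
rno-miR-378a-3p: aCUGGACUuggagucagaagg
rno-miR-378a-5p: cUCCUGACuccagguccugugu
rno-miR-22-3p: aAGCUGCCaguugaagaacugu
rno-miR-22-5p: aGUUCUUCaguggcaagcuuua
rno-miR-16-5p: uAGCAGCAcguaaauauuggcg

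miR-103-3p and miR-107-3p shared 1 seed and differed at 1 of 23 bases, the substitution G22C from miR-103-3p to miR-107-3p, counted from the 5′ end. No other of the 693 mature sequences of that table carried their seed, and the other 6 matched arms shared their seeds with none of these sequences. The members miR-107-5p, miR-335 and miR-378b had no sequence there. Whether any of them shares a seed with another member, such as miR-378b with miR-378a-3p, was therefore not examined. miR-16-5p, not a member, is shown for its relation to this pair. Its seed, AGCAGCA, is carried by 5 mature sequences at bases 2 to 8, and in miR-103-3p and miR-107-3p the same letters lie 1 base nearer to the 5′ end, at bases 1 to 7.

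In the RefSeq annotation of GRCr8, miR-33, miR-103, miR-107 and miR-378a lie within the spans of genes of metabolism. The positions of miR-335 and miR-378b were not looked up. The miR-33 hairpin (chr7:115593952-115594020, plus strand) lies within the span of Srebf2, which encodes a transcription factor of cholesterol synthesis. The miR-107 hairpin (chr1:241750418-241750504, minus strand) lies within Pank1. The hairpins of miR-103 lie within Pank2 (chr3:138963227-138963312, plus strand) and Pank3 (chr10:20748474-20748559, plus strand). The Pank genes encode pantothenate kinases, which start the synthesis of coenzyme A. The 2 arms of miR-378a (3p at chr18:57128925-57128945 and 5p at chr18:57128962-57128983, minus strand) lie within Ppargc1b, which encodes a coactivator of mitochondrial genes. No gene other than the microRNA itself was annotated over the miR-22 hairpin (chr10:60805331-60805425, plus strand). The table used holds gene spans only, so exons and introns were not told apart, and the strands of the genes were not compared.

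The libraries held between 1404858 (Control 12) and 14788757 (TPN 8) reads assigned to rows of the table, so 1 read was worth 0.712 CPM in the former and 0.0676 CPM in the latter. Control 5, 12 and 19 had the fewest reads and the largest share of predicted microRNAs (0.517% to 2.0%, against 0.0965% to 0.145% in the other libraries). Values without these 3 libraries are given for each tested member and ratio. As a check of the tissue, hepatocyte microRNAs (8 rows of miR-122, miR-148a, miR-192 and miR-194) summed to between 564720 and 797115 CPM in Control and between 719785 and 785590 CPM in TPN. The largest row in each library was miR-148a-3p, with 376313 (Control 18) to 649587 CPM (TPN 6). Single rows were less even than the sum: miR-122-5p ran from 21802 CPM in Control 19 to 335322 CPM in Control 18. In bulk liver, fewer cells of a type and less of a microRNA per cell cannot be told apart.

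No metabolic microRNA differed between TPN and Control past the threshold. In the limma-trend fit of 535 rows, 0 of the 9 tested members had a Benjamini-Hochberg adjusted p under 0.05, and 0 rows of the table did (0%). At an unadjusted p under 0.05 in this fit, on the deposited scale, 1 member, miR-335, was on the lower side, where 11.4% of all tested rows passed in either direction. edgeR and limma-voom on the recovered reads called 0 rows, and DESeq2 called 5 higher and 108 lower, of which 1 was a member, miR-378a-3p. The groups overlapped in each of the 9 tested members, while 1.43% of the rat-named rows tested had groups without overlap. All 9 tested members had negative log2 fold changes on the deposited scale, as had 79.3% of the 280 rat-named rows tested. Their median was -0.24, beside -0.26 over the rat-named rows, with 5 members above that median and 4 below it.

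The sign of most members depended on how the libraries were scaled. Over the rat-named rows the median log2 fold change moved from -0.26 on the deposited scale to 0.16 with TMM, 0.037 with RLE and 0.31 with upper-quartile scaling. With TMM and with RLE, 7 of the 9 members were positive, and with upper-quartile scaling all but miR-335 were. Values below are log2 fold changes of TPN over Control on the log2(CPM + 1) scale with moderated standard errors, unless another unit is named. They are best read against the median of -0.26.

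**Figure D1:**
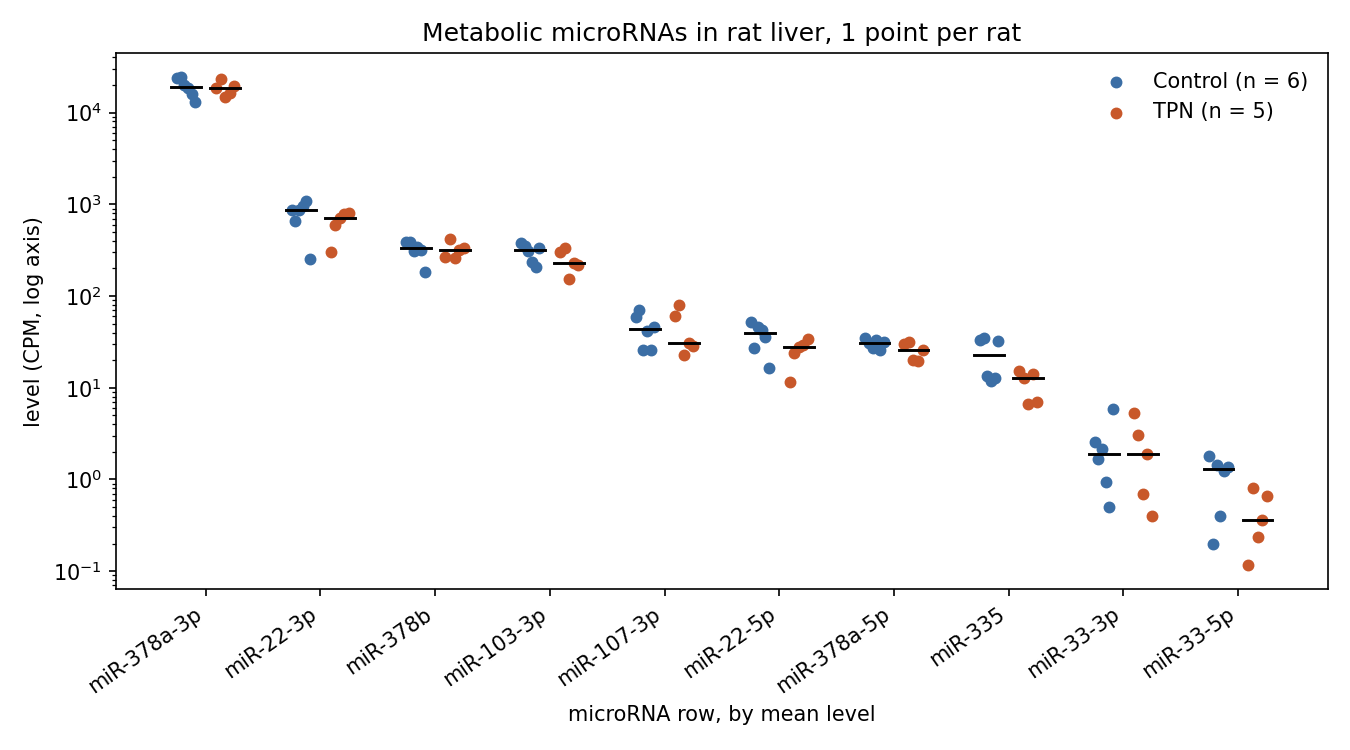
Level in CPM (log axis) of the 10 metabolic microRNA rows other than miR-107-5p, which had no reads in most libraries, 1 point per rat, with a bar at the group median, for 6 Control (blue) and 5 TPN (orange) rats. These rows span from 18884 CPM on average for miR-378a-3p to 0.783 CPM for miR-33-5p, and the 2 groups overlap in every row.

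rno-miR-378a-3p was by far the most abundant member. It averaged 18884 CPM, or 1.89% of the reads, and ranked 7 of 533 rat-named rows. It made up 90.2% to 94.8% of all reads of the members in each library. In Control it stood at 23635 (rat 5), 24203 (7), 19833 (12), 18427 (16), 15761 (18) and 13184 CPM (19). In TPN it stood at 18316 (rat 6), 23487 (8), 14935 (11), 16416 (15) and 19529 CPM (16). The TPN values lay inside the Control range. The means were 19174 CPM ± 4329 (SD, n = 6) in Control and 18537 CPM ± 3279 (SD, n = 5) in TPN.

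For miR-378a-3p the log2 fold change was -0.03 ± 0.22 (limma-trend, adjusted p = 0.962), with a 95% interval from -0.51 to 0.44. That value lay 0.23 above the rat-named median, and with TMM scaling it was 0.45 and lay 0.28 above the TMM median. DESeq2 gave 0.29 ± 0.10 (adjusted p = 0.0284), a call that no other setting made (edgeR's quasi-likelihood test gave an adjusted p of 0.168). The adjusted p of this row ranged from 0.0284 to 0.994 over all settings. Among the 4 rats numbered below 10 (2 Control, 2 TPN) the log2 fold change was -0.21, and among the 7 others 0.022. Without Control 5, 12 and 19 it was -0.065. The labels do not say what the rat numbers stand for, and this split was chosen after seeing the data.

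miR-378b, a relative by name, followed miR-378a-3p closely. It averaged 323 CPM ± 76.6 in Control (SD, n = 6) and 318 CPM ± 62.7 in TPN (SD, n = 5), and its log2 fold change of -0.00031 ± 0.23 had a 95% interval from -0.50 to 0.50. It was -0.24 in the rats numbered below 10 and 0.10 in the other 7, and -0.16 without Control 5, 12 and 19. Its reads came to between 1.39% (Control 19) and 2.03% (Control 18) of those of miR-378a-3p in the same library. Among the 167 other rat-named rows that averaged 10 CPM or more, miR-378b had the smallest spread against miR-378a-3p, with an SD of their log2 ratio over the 11 rats of 0.167. The next were miR-181a-5p (0.170) and miR-152-3p (0.174), and the median row had 0.55. How the authors divided reads between similar sequences is not given in the sources used here, so the levels of the 2 rows may not be independent.

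The 5p arm of miR-378a was rare beside its 3p arm. It averaged 30.6 CPM ± 3.67 in Control (SD, n = 6) and 25.4 CPM ± 5.52 in TPN (SD, n = 5), ranging from 25.7 to 35.2 CPM and from 19.6 to 31.6 CPM. Its log2 fold change was -0.28 ± 0.21 (limma-trend, adjusted p = 0.395), with -0.088 in the rats numbered below 10 and -0.42 in the other 7, and -0.24 without Control 5, 12 and 19. For each read of the 5p arm there were between 415 (Control 19) and 836 (TPN 15) reads of the 3p arm. The arm ratio, which does not depend on library scaling, is taken up with the others below. Within groups this arm varied little, with an SD of 0.24 on the log2 scale, beside a median of 0.54 over the 280 rat-named rows tested. That of the 3p arm was 0.30.

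rno-miR-22-3p was the next most abundant member, ranking 32 of 533. In Control it stood at 866 (rat 5), 663 (7), 863 (12), 959 (16), 1085 (18) and 253 CPM (19). In TPN it stood at 305 (rat 6), 591 (8), 705 (11), 780 (15) and 803 CPM (16). Control 19 and TPN 6 were far below the rest of their groups, and the Control median of 865 CPM was above each TPN rat. Over all rats the range was 4.29-fold. The log2 fold change was -0.24 ± 0.38 (limma-trend, adjusted p = 0.739), with a 95% interval from -1.06 to 0.58. Without TPN 6 it was 0.0049, and without Control 19 it was -0.54 (adjusted p = 0.399). It was -0.83 in the rats numbered below 10 and 0.14 in the other 7, and -0.55 (adjusted p = 0.820) without Control 5, 12 and 19.

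The 5p arm of miR-22 showed the same 2 low rats. In Control it stood at 52.2 (rat 5), 27.2 (7), 46.3 (12), 42.9 (16), 36.1 (18) and 16.4 CPM (19), and in TPN at 11.4 (rat 6), 23.8 (8), 28.0 (11), 29.6 (15) and 34.2 CPM (16). Again Control 19 was the lowest Control and TPN 6 the lowest TPN rat. The Control median of 39.5 CPM was above each of the 5 TPN rats. The log2 fold change was -0.51 ± 0.35 (limma-trend, adjusted p = 0.344), 0.25 below the rat-named median, and it was -1.14 in the rats numbered below 10 and -0.11 in the other 7. Without Control 5, 12 and 19 it was -0.52. The value was -0.047 with TMM, -0.19 with RLE, -0.061 with edgeR, -0.059 with limma-voom and -0.17 with DESeq2, and it turned to 0.12 with upper-quartile scaling. With both arms of miR-22 and miR-335, 3 of the 9 tested members had all TPN rats under the median of the Control rats, as had 28.2% of the rat-named rows tested.

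Markers of other cells and of hepatocytes did not all move with miR-22. Control 19 and TPN 6 were the lowest rats in 2 of 8 hepatocyte rows, miR-122-5p (21802 and 25379 CPM, against 50451 CPM or more in the other rats) and miR-192-5p (30609 and 39658 CPM). They were the highest rats in miR-148a-5p (3450 and 3879 CPM), and the sum of the hepatocyte rows, 629887 and 719785 CPM, lay within the range of the other rats. Of the 2 endothelial rows, miR-126a-3p was lowest in these rats (1467 and 2630 CPM) and miR-126a-5p was among the highest (552 and 532 CPM). Control 19 and TPN 6 were also lowest in 2 of 7 rows of stellate cells, fibroblasts and smooth muscle, miR-145-3p and miR-199a-3p. The same held for 1 of 8 rows of bile duct and epithelium, 1 of 8 blood and immune rows and 1 of 7 muscle rows. Of the 4 red blood cell rows, 0 did so, and in 1 other muscle row these rats were highest. The part of these cell types in the level of miR-22 was not tested. The rows most like miR-22-3p over the 11 rats were miR-28-5p (SD of the log2 ratio 0.18), miR-125a-5p (0.22) and miR-24-3p (0.23), where the median row had 0.79. Its own 5p arm ranked 13 of 167 (0.30).

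**Figure D2:**
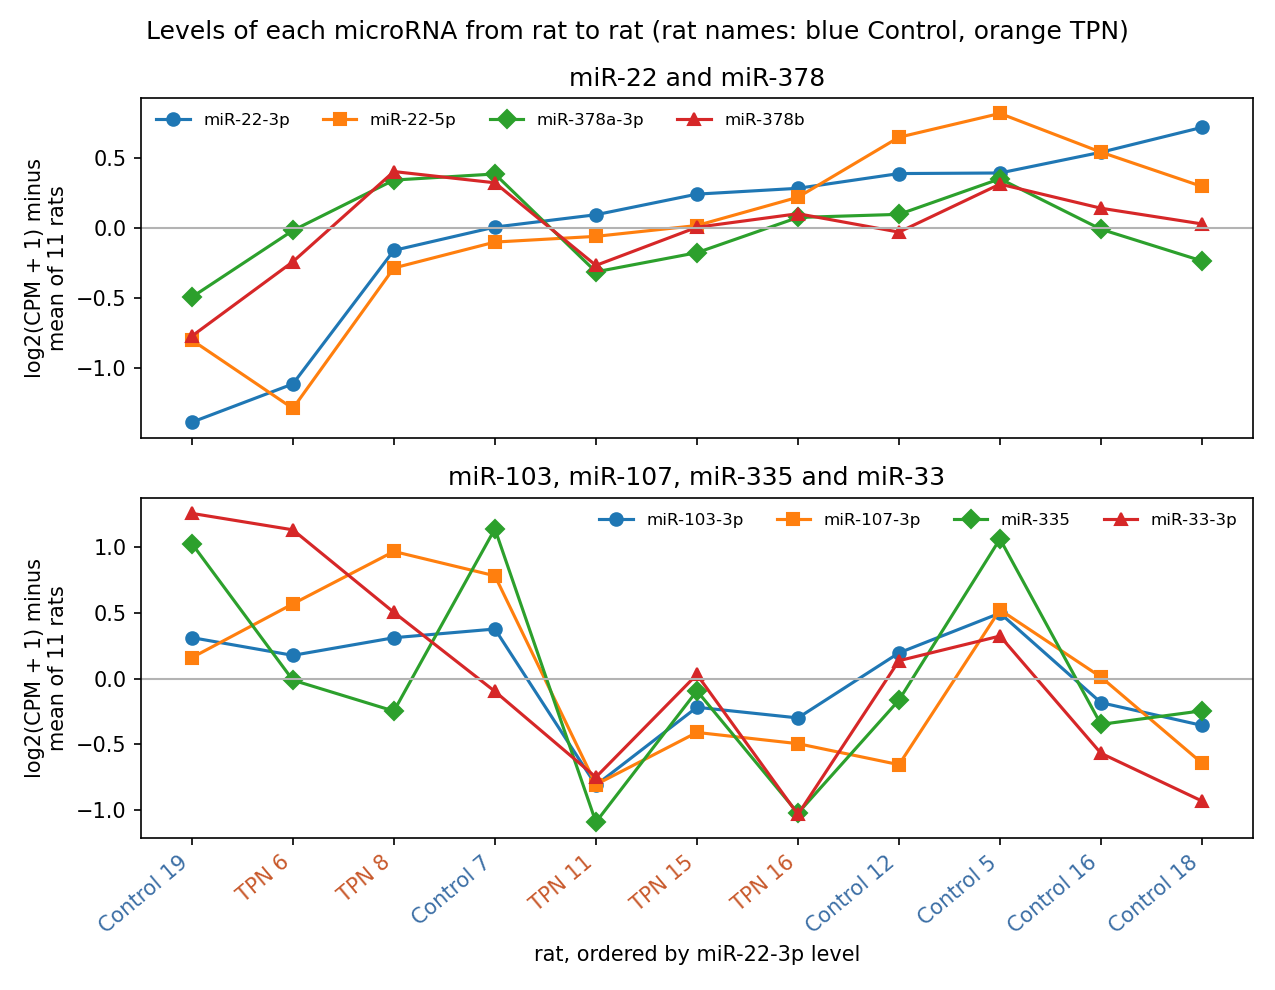
Levels from rat to rat, as log2(CPM + 1) minus the mean of the 11 rats, with rats ordered by their miR-22-3p level (names in blue for Control, orange for TPN). Both arms of miR-22 are lowest in Control 19 and TPN 6, miR-378b tracks miR-378a-3p, and miR-107-3p is highest in TPN 8 and Control 7.

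rno-miR-103-3p was several times more abundant than miR-107-3p in each library. In Control it stood at 377 (rat 5), 347 (7), 306 (12), 235 (16), 209 (18) and 332 CPM (19), and in TPN at 302 (rat 6), 332 (8), 152 (11), 230 (15) and 217 CPM (16). TPN 11 was the lowest rat, and 4 of 5 TPN rats stood under the Control median of 319 CPM. The means were 301 CPM ± 66.0 (SD, n = 6) and 247 CPM ± 71.3 (SD, n = 5). The log2 fold change was -0.31 ± 0.24 (limma-trend, adjusted p = 0.415), 0.045 below the rat-named median, and it turned to 0.17 with TMM scaling, 0.00875 above the TMM median. Without Control 5, 12 and 19 it was -0.11.

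miR-107-3p varied more. In Control it stood at 59.1 (rat 5), 70.9 (7), 25.6 (12), 41.2 (16), 25.8 (18) and 45.7 CPM (19), and in TPN at 61.0 (rat 6), 80.7 (8), 23.0 (11), 30.5 (15) and 28.7 CPM (16). The group means were nearly equal, at 44.7 CPM ± 18.02 (SD, n = 6) in Control and 44.8 CPM ± 24.9 (SD, n = 5) in TPN. The log2 fold change was -0.06 ± 0.38 (limma-trend, adjusted p = 0.962), with a 95% interval from -0.88 to 0.75, and -0.085 without Control 5, 12 and 19.

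The spread of miR-107-3p ran with the rat numbers rather than with the groups. The 4 rats numbered below 10 (2 Control, 2 TPN) had 59.1 to 80.7 CPM, and the 7 rats numbered 10 or more had 23.0 to 45.7 CPM, with no overlap. Among the rat-named rows tested, 2.14% separated these rats without overlap. As the split was chosen after seeing the data, it carries no test. miR-103-3p showed a smaller difference of this kind, with 302 to 377 CPM in the first set and 152 to 332 CPM in the second. Within the rats numbered below 10 the log2 fold change of TPN over Control was 0.11 for miR-107-3p and -0.19 for miR-103-3p. Within the others it was -0.29 and -0.43. How reads were divided between these 2 similar sequences is not known, so their levels may not be independent.

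The passenger arm miR-107-5p was almost absent. None of the 33976854 Control reads was assigned to it, and a count of 0 there allows up to 0.0883 CPM. Of the 47855289 TPN reads, 3 were assigned to it (1 each in TPN 6, 8 and 16), or 0.0627 CPM with an exact Clopper-Pearson 95% interval from 0.0129 to 0.183. Both levels were at or under the limit that a count of 0 allows, so no difference was detectable at this depth. The rows most like miR-103-3p were miR-340-5p (SD of the log2 ratio 0.18), miR-30c-2-3p (0.19) and miR-140-3p (0.20), with a median row of 0.52. Those most like miR-107-3p were miR-374-5p (0.32), let-7e-5p (0.37) and miR-340-5p (0.38), with miR-103-3p in rank 4 of 167 (0.41).

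miR-33, the microRNA encoded within Srebf2, was rare in these livers. Its 5p arm, the one usually studied as the repressor of ABCA1, had a mean of 0.783 CPM and lay under the filter of 1 CPM. The 5p reads were 7, 2, 2, 3, 10 and 4 in Control 5, 7, 12, 16, 18 and 19, and 1, 12, 2, 3 and 5 in TPN 6, 8, 11, 15 and 16. No library had more than 12 reads, so single values carry a wide counting error. In CPM the Control libraries ran from 0.196 to 1.80 and the TPN libraries from 0.116 to 0.811, and each TPN value was under the Control median of 1.31 CPM.

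Pooled over the reads of each group, miR-33-5p came to 0.824 CPM in Control (exact Clopper-Pearson 95% interval 0.548 to 1.19) and 0.481 CPM in TPN (0.305 to 0.721). These intervals overlap, and they cover counting error only, not the spread between rats. With the filter removed, its log2 fold change was -0.49 ± 0.36 (limma-trend, adjusted p = 0.465). The 3 highest values were those of Control 5, 12 and 19, from 7, 2 and 4 reads, and a difference was not detectable at this depth.

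The 3p arm of miR-33 was the more frequent in 9 of 11 libraries. It had 58 reads in Control and 115 in TPN, and the reads were 10, 17, 3, 7, 4 and 17 in Control 5, 7, 12, 16, 18 and 19 and 45, 45, 6, 16 and 3 in TPN 6, 8, 11, 15 and 16. The means were equal within their error, at 2.27 CPM ± 1.89 (SD, n = 6) in Control and 2.26 CPM ± 1.97 (SD, n = 5) in TPN. The highest values were those of Control 19 (5.80 CPM) and TPN 6 (5.24 CPM), the same 2 rats that were lowest in miR-22-3p. The log2 fold change was -0.04 ± 0.50 (limma-trend, adjusted p = 0.983), and without Control 5, 12 and 19 it was 0.51 (adjusted p = 0.834). It was 0.70 in the rats numbered below 10 and -0.56 in the other 7.

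rno-miR-335 had the lowest log2 fold change of the members. In Control it stood at 32.9 (rat 5), 34.7 (7), 13.5 (12), 11.8 (16), 12.7 (18) and 32.1 CPM (19), and in TPN at 15.1 (rat 6), 12.7 (8), 6.65 (11), 14.3 (15) and 7.02 CPM (16). Control 5, 7 and 19 lay far above the rest, while Control 12, 16 and 18 lay within the TPN range. The 5 TPN rats stood under the Control median of 22.8 CPM, but the groups overlapped. The means were 23.0 CPM ± 11.3 (SD, n = 6) in Control and 11.2 CPM ± 4.04 (SD, n = 5) in TPN, which made the Control mean 2.06 times the TPN mean.

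The log2 fold change of miR-335 was -0.90 ± 0.38, with a 95% interval from -1.72 to -0.089 and an unadjusted p of 0.0324. After adjustment over all rows (limma-trend, Benjamini-Hochberg) p was 0.296, and it ranged from 0.170 to 0.832 over the settings. It was the one member that stayed negative in all 28 settings. These refit the same 11 rats or parts of them, and with upper-quartile scaling 66 of the 280 rat-named rows were negative. miR-335 lay 0.64 below the rat-named median on the deposited scale, 0.62 below it with TMM and 0.60 below it with upper-quartile scaling. In the rats numbered below 10 the value was -1.23, in the other 7 it was -0.80, and without Control 5, 12 and 19 it was -0.67. The value itself was -0.45 with TMM (unadjusted p = 0.202), -0.59 with RLE (0.107), -0.30 with upper-quartile scaling (0.449), -0.53 with edgeR (0.177), -0.52 with limma-voom (0.167) and -0.68 with DESeq2 (0.0763). On the deposited scale 10.4% of the rat-named rows were lower at an unadjusted p under 0.05.

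Some markers of several cell types, hepatocytes among them, were high in the same Control rats as miR-335. The red blood cell rows (4 rows, both arms of miR-144 and of miR-451) summed to 802, 422 and 576 CPM in Control 5, 7 and 19, to 133 to 210 CPM in Control 12, 16 and 18, and to 31.3 to 261 CPM in TPN. The sum was carried by miR-451-5p, the only 1 of the 4 rows in which Control 5, 7 and 19 all stood above the other Control rats. The stellate cell, fibroblast and smooth muscle rows summed to 18657 to 37661 CPM in Control and 12710 to 28086 CPM in TPN, nearly all of it miR-143-3p. Control 5, 7 and 19 stood above the other Control rats in 3 of these 7 rows, miR-143-3p, miR-145-5p and miR-214-3p, and not in the other rows, such as miR-145-3p (22.4, 29.5 and 12.6 CPM, against 29.9 to 41.7 CPM). Hepatocyte rows showed the same in 3 of 8, miR-148a-5p, miR-192-3p and miR-194-5p. So did 1 of 2 endothelial rows and 1 of 8 rows of bile duct and epithelium. Of the 8 blood and immune rows and the 7 muscle rows, 0 did. The part of any of these cells in the level of miR-335 was not tested.

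**Figure D3:**
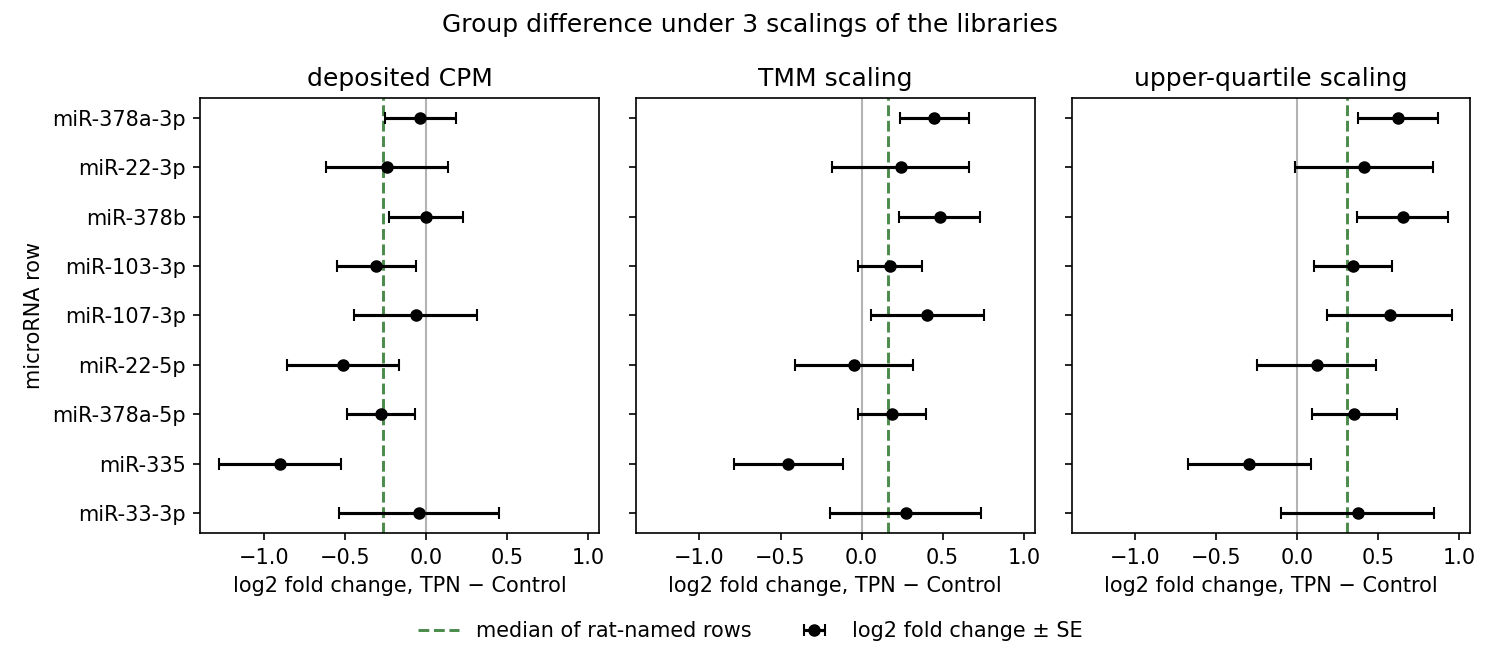
Log2 fold change of TPN over Control with its standard error for the 9 tested rows, on the deposited CPM, with TMM and with upper-quartile scaling; the dashed line marks the median of the rat-named rows (-0.26, 0.16 and 0.31). Most members move across 0 with the scaling, while miR-335 stays negative and below the median in each panel.

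Ratios taken within a library do not depend on the scaling. Of the 4 ratios tested, none differed between groups in a 2-sided exact permutation test (smallest p = 0.130, and 0.294 after Benjamini-Hochberg adjustment over the 4). The 5p arm of miR-22 came to 4.96% ± 1.21 of the 3p arm in Control (SD, n = 6) and 3.96% ± 0.206 in TPN (SD, n = 5). The 5 TPN values (3.74% to 4.26%) lay below the Control median of 4.92%, and the log2 difference was -0.29 (exact permutation p = 0.130). The 3 highest values were those of Control 19 (6.49%), Control 5 (6.02%) and Control 12 (5.36%), the libraries with the fewest reads and the largest share of predicted microRNAs. Without them the log2 difference was 0.0059 (exact permutation p = 0.964). It was -0.36 in the rats numbered below 10 and -0.25 in the other 7.

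The arm ratio of miR-378a showed a difference of like size. Its 5p arm came to 0.166% ± 0.0416 of the 3p arm in Control (SD, n = 6) and 0.137% ± 0.0161 in TPN (SD, n = 5), a log2 difference of -0.25 (exact permutation p = 0.147, adjusted 0.294). Control 19 was highest, at 0.241%, and without it the log2 difference was -0.14. Without Control 5, 12 and 19 it was -0.19. The difference was -0.46 among rats numbered 10 or more and 0.12 among those numbered below 10. With 2 against 2 rats in the latter, the smallest 2-sided p is 0.333.

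miR-103-3p exceeded miR-107-3p by a factor of 7.38 ± 2.50 in Control (SD, n = 6) and 6.15 ± 1.56 in TPN (SD, n = 5). The 2 sequences differ at base 22 only, and how their reads were divided is not known, so the ratio may depend on that division. The log2 difference was -0.24 (exact permutation p = 0.390, adjusted 0.390), and without Control 12, which had the highest ratio (11.9, from 430 and 36 reads), it was -0.09. Without Control 5, 12 and 19 it was -0.026. It was -0.31 in the rats numbered below 10 and -0.14 in the other 7. The ratio of the 3p to the 5p arm of miR-33 ran from 0.400 in Control 18 to 45.0 in TPN 6. Its log2 difference of 1.103 (exact permutation p = 0.368, adjusted 0.390) fell to 0.26 without TPN 6, in which a single 5p read stood against 45 of the 3p arm. It was 1.90 in the rats numbered below 10 and 0.44 in the other 7, and 1.14 without Control 5, 12 and 19.

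**Figure D4:**
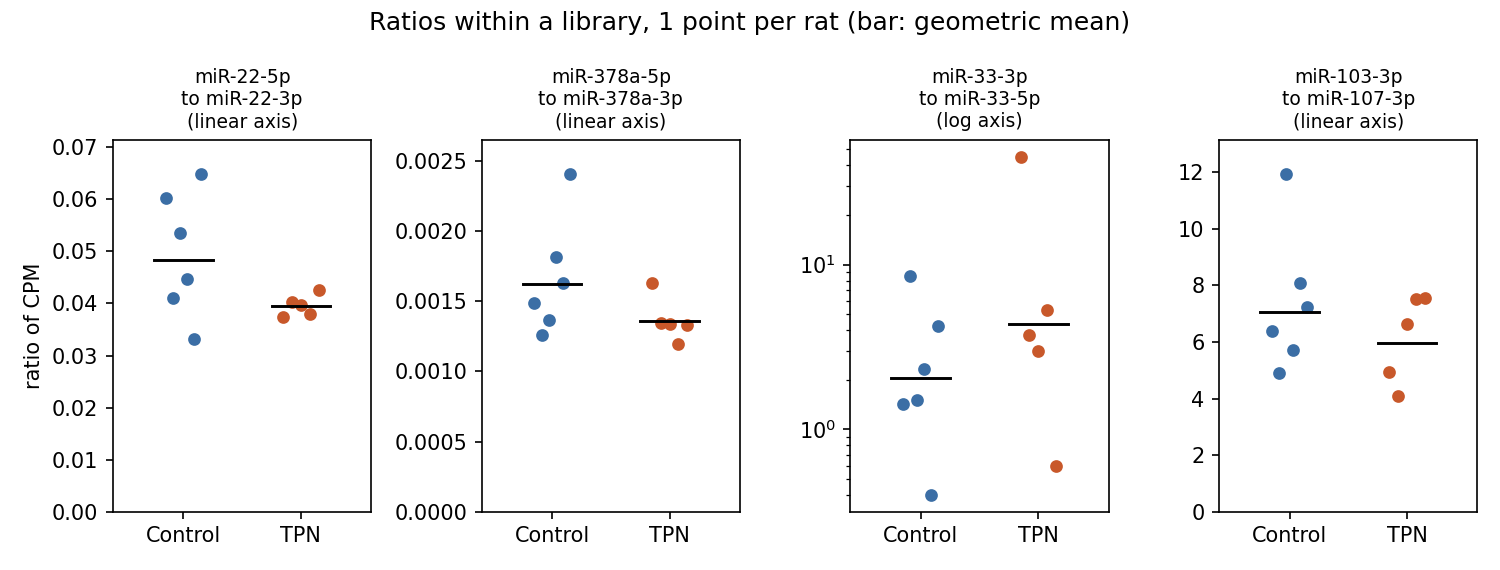
Ratios of CPM within a library for the arms of miR-22, miR-378a and miR-33 and for miR-103-3p to miR-107-3p, 1 point per rat, with a bar at the geometric mean; the miR-33 panel has a log axis. The groups overlap in all 4 panels, and the miR-22 arm ratio is highest in 3 Control rats (5.36% to 6.49%).

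Marker microRNAs of skeletal and heart muscle, where miR-378a and miR-22 are also abundant, were read as well. These 7 rows, of which 4 were tested, summed to 7.51 to 84.0 CPM in Control and 11.4 to 24.7 CPM in TPN. The highest sum was that of Control 12, where miR-206-3p had 52.7 CPM. In that library, the one with the fewest reads, miR-378a-3p (19833 CPM) and miR-22-3p (863 CPM) lay within the range of the other Control rats. The part of muscle in the levels of these microRNAs was not tested.

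Other microRNAs of lipid and glucose metabolism gave no call either. Of 28 tested rows on the list of cholesterol and lipid microRNAs, 0 passed over all rows, and the median was -0.37. Of these rows, 23 were negative, as were 79.3% of the rat-named rows tested. Its most abundant row was miR-148a-3p, which restrains the LDL receptor in human and mouse liver cells, with a log2 fold change of 0.25 ± 0.23. Its rows with the smallest p were miR-96-5p (-1.14 ± 0.29) and the red cell miR-144-3p (-1.21 ± 0.42). At an unadjusted p under 0.05, 4 were lower and 0 higher, where 10.4% of the rat-named rows were lower.

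Of 25 tested rows on the list of glucose and insulin microRNAs, 0 passed over all rows, and the median was -0.13. Of these rows, 16 were negative, beside 79.3% of the rat-named rows tested. Its most abundant row was miR-143-3p (-0.43 ± 0.26), and those with the smallest p were the red cell miR-451-5p (-2.35 ± 0.63) and the islet microRNA miR-375-3p (0.53 ± 0.20). At an unadjusted p under 0.05, 4 were lower and 1 higher, where 10.4% of the rat-named rows were lower. The list of relatives of miR-103 and miR-107 had 10 tested rows, both arms included, of which 0 passed over all rows. Of them 2 were lower at an unadjusted p under 0.05, beside 10.4% of the rat-named rows. The median was -0.47, and 9 were negative, beside 79.3% of the rat-named rows tested. Of the 10 rows, 6 were 5p arms that carry the AGCAGCA seed or, in miR-503-5p, AGCAGCG. All 6 were negative, beside the same 79.3%, with a median of -0.59. The other 4 rows were 3p arms without that seed. miR-16-5p, the most abundant row of the list, had -0.90 ± 0.35 and miR-15b-5p had -0.997 ± 0.32, beside -0.31 and -0.06 for miR-103-3p and miR-107-3p. With upper-quartile scaling the medians of the 3 lists were 0.27, 0.48 and 0.092, beside 0.31 over the rat-named rows, and that of the 6 arms with the seed was -0.084.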

How the data were processed

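Small RNA libraries of 11 rat livers (6 Control, 5 TPN) were made from TRIzol-extracted RNA and sequenced on an Illumina HiSeq instrument, per the labels' protocols. Values in CPM were deposited by the authors as 1 table, in which each column sums to 1000000. DESeq2 is named without a role, per the submitters' processing notes. Trimming, aligner, build and how reads were divided between similar sequences were not given in the sources used here. All non-zero values (100%) were whole multiples of the smallest value of their column, within a tolerance of 0.001, so reads were recovered by division. Intervals and limits (3 reads for a count of 0) cover counting error only.

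Differences were tested with limma-trend (limma 3.58.1, R 4.3.3) on log2(CPM + 1) over the 535 rows that averaged 1 CPM or more, with Benjamini-Hochberg adjustment over all rows. edgeR 4.0.16, DESeq2 1.42.0 and limma-voom were run on the recovered reads as alternatives. Within-library ratios were tested with 2-sided exact permutation tests over 462 regroupings. The limma-trend fit, and none of the alternatives, was tested on simulated data. Likeness was the SD of the log2 ratio of 2 rows over the 11 rats. All tested members were named, with the 3 rows most like each of 4 members and, of each list, the most abundant row and the 2 with the smallest p. The labels name no batch; rats numbered below 10 and of 10 or more were compared after seeing the data. All pairs of libraries differed by more than sampling noise (smallest chi-square 168 per degree of freedom). The members, lists and cell type markers were chosen with earlier results of these data known.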

Additional observations from a re-analysis of the deposited data

Results flagged for a closer look

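Of 26 groups of values examined (9 rows and 4 ratios in Control and in TPN), 1 held a rat far from the others, and chance flags about 1 in 20 such groups. It was the ratio of miR-33-3p to miR-33-5p in TPN 6, which was 45.0, while the next highest TPN rat had 5.33. The value rests on 45 reads of the 3p arm and 1 read of the 5p arm.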

How the results depend on the processing

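The count of rows past an adjusted p of 0.05 was 0 in each direction in every setting except DESeq2, which called 5 higher and 108 lower, with 1 metabolic microRNA (miR-378a-3p) among them. Log2 fold changes that turned positive are given in the order miR-103-3p, miR-107-3p, miR-22-3p, miR-33-3p, miR-378a-3p, miR-378a-5p and miR-378b. They were 0.17, 0.41, 0.24, 0.27, 0.45, 0.19 and 0.48 with TMM, and 0.026, 0.26, 0.094, 0.16, 0.30, 0.045 and 0.33 with RLE. They were 0.34, 0.57, 0.41, 0.37, 0.62, 0.35 and 0.65 with upper-quartile scaling, where miR-22-5p also turned to 0.12. They were 0.19, 0.45, 0.14, 0.58, 0.41, 0.19 and 0.42 with edgeR, 0.040, 0.31, 0.050, 0.33, 0.29, 0.042 and 0.31 with DESeq2, and 0.17, 0.39, 0.24, 0.66, 0.44, 0.18 and 0.47 with limma-voom. Scaled to the median rat-named row of each library (added after seeing the data) they were 0.13, 0.36, 0.20, 0.22, 0.41, 0.15 and 0.44. These settings raise the middle of the table, and no further cause was tested. Among rats numbered below 10, miR-107-3p turned to 0.11, miR-33-3p to 0.70 and the log2 difference of the miR-378a arm ratio to 0.12. Among the others, miR-22-3p turned to 0.14, miR-378a-3p to 0.022 and miR-378b to 0.10. Without Control 5, 12 and 19, miR-33-3p turned to 0.51 and the miR-22 arm ratio to 0.0059; the cause was not tested.

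Leaving out each replicate in turn moved miR-107-3p between -0.31 and 0.13, miR-22-3p between -0.54 and 0.0049, miR-33-3p between -0.33 and 0.21, miR-378a-3p between -0.14 and 0.040 and miR-378b between -0.15 and 0.066. miR-335 stayed between -1.05 and -0.75, miR-103-3p between -0.43 and -0.15, miR-22-5p between -0.72 and -0.26 and miR-378a-5p between -0.36 and -0.19. The log2 differences of the ratios kept their sign: miR-22 arms between -0.40 and -0.21, miR-378a arms between -0.33 and -0.14, miR-103-3p to miR-107-3p between -0.35 and -0.09 and miR-33 arms between 0.26 and 1.82. No paired analysis was possible because the groups share only 1 rat number, 16, and the labels do not say that it links the 2 rats. Depth limits miR-33 and miR-107-5p most: 0 reads allow 2.14 CPM in Control 12 and 0.203 CPM in TPN 8.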
